A study of Homo sapiens with 12 samples.

Results

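Long single-exon m6A regions are stretches built from m6A peaks of 1 exon block, 1000 nt or longer, found in at least 1 library of the series. N6-methyladenosine (m6A) was mapped by MeRIP-seq, which sequences the RNA fragments that an anti-m6A antibody captures. A peak qualified when the deposited list gave it exactly 1 block of at least 1000 nt, and 2968 peaks did so. Same-strand overlap joined the qualifying peaks of the 6 lists into 1450 long regions. Joining all single-exon peaks of any length in the same way gave 21122 regions, from 81265 peaks in all. The long regions spanned 2088 kb and were chosen on the lengths themselves, so those lengths are described and not tested. The lists give each peak 1 block per exon, but no annotation of their genome build was used here, so coding or untranslated position was not determined.

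The cells were 143B, an established human osteosarcoma line, transfected with siRNA against ALKBH5 or with scrambled siRNA and harvested at 48 h. Each siRNA group had 3 immunoprecipitated libraries with 1 peak list each, while the 6 input samples entered no comparison. The labels' protocol states that replicates 1 and 3 used polyadenylated RNA and different m6A antibodies and that total RNA and a Magna MeRIP kit, with another antibody again, served for replicate 2. The antibody field of the labels instead names 1 antibody for all 6 libraries. Libraries of the same number are called a pair below, and separate cultures are not stated for them, so p-values cover only the spread among the libraries, which may be technical.

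The methyl mark is written on adenosines of messenger RNA by the METTL3 and METTL14 complex and removed by the demethylases ALKBH5 and FTO. In mammalian transcripts it is known to be dense in long internal exons and in the last exon around the stop codon. Close to splice junctions the exon junction complex is known to keep the mark low, which leaves long exons as its main sites. Antibody peaks report enrichment over a stretch of RNA and not single methylated bases, so a long peak may hold several marks.

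ALKBH5 itself had no long region. Its transcript carried 0 peaks in each knockdown list and 1, 0 and 1 peaks in scrambled replicates 1, 2 and 3. Of 14 genes fixed as osteoblast or 143B markers, 8 had a peak in some list, among them RUNX2 and COL1A1, and 0 had a long region. ALPL, COL1A2, IBSP, SP7, SPARC and VIM had no peak, and peak calls are not RNA levels. Because the lists hold no read counts or RNA levels, methylation per transcript, transcript amount and depth cannot be told apart in any length given here.

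The long peaks came mostly from the replicate 3 lists. In replicates 1 to 3 the knockdown lists held 17550, 5908 and 18317 peaks of any length, and the scrambled lists 15113, 5670 and 18707. The median single-exon peak measured 241, 151 and 300 nt in the knockdown lists and 206, 151 and 328 nt in the scrambled lists. A long peak was held by 466, 7 and 1052 regions in knockdown replicates 1 to 3, against 117, 2 and 1053 in scrambled replicates 1 to 3. In replicate 1 the knockdown list therefore reached 1000 nt in far more regions than its control, whereas the replicate 3 lists were almost equal. As a share of each library's single-exon peaks, long peaks made up 3.40, 0.142 and 7.63% of the knockdown lists and 0.977, 0.0552 and 7.23% of the scrambled lists. A long peak in a replicate 3 library defined 1387 of the 1450 regions, one in replicate 1 defined 495, and one in replicate 2 defined 8. The spread between replicate numbers was thus wider than any difference between the siRNAs.

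**Figure D1:**
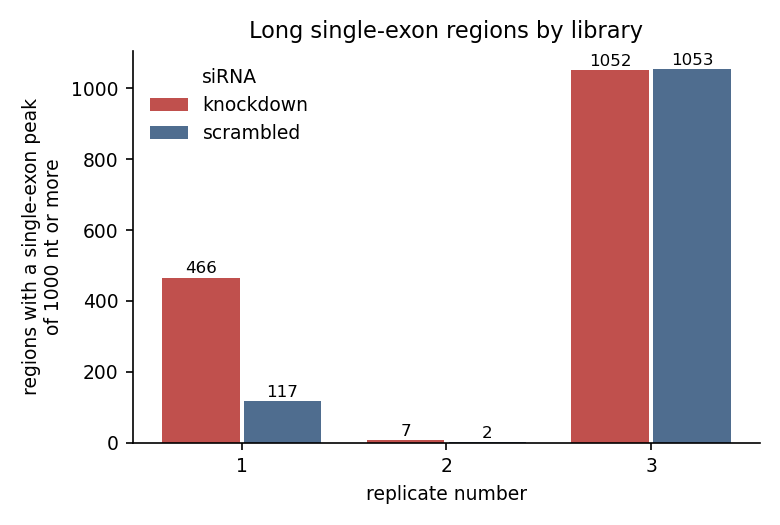
Bars give the number of regions (vertical axis) that held a single-exon peak of 1000 nt or more in each library, by replicate number (horizontal axis) and siRNA (colour). The replicate 1 bars differ (466 against 117), and the replicate 3 bars are level (1052 against 1053).

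Most long regions were a little over the minimum. Their median length was 1291 nt (quartiles 1131 and 1601 nt), 438 held a peak of at least 1500 nt, 128 one of at least 2000 nt and 17 one of at least 3000 nt. Just outside the rule, 16 peaks measured 991 nt, among them peaks in CELSR3, CHMP1B and CSNK1D, and the shortest inside it measured 1000, 1001 and 1003 nt, of which the second lay in UBALD1. From 900 to under 1000 nt there were 919 single-exon peaks, and from 1000 to under 1100 nt there were 690.

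Reaching 1000 nt was seldom shared by many libraries, although the replicate 1 and 3 libraries called most of the same stretches at some length. Exactly 628 regions were long in 1 library, 476 in 2, 271 in 3, 71 in 4, 4 in 5 and 0 in all 6. A region counts as called when any peak block of a library overlaps it. By that measure 753 of the 1450 regions (51.9%) were called in all 6 libraries, beside 13.3% of all joined single-exon regions, a count that the rule favours because a long peak needs a well-covered exon. Knockdown replicates 1, 2 and 3 called 1445, 878 and 1449 regions, and scrambled replicates 1, 2 and 3 called 1415, 925 and 1450. Neither replicate 2 library called 402 of them.

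The 4 regions that were long in 5 libraries lay in CELSR1, HELZ2, LRFN4 and a stretch with no gene number, and were named after their values were seen. LRFN4 encodes a neuronal adhesion protein with leucine-rich repeats. Its region on the plus strand of chromosome 11 (66625263 to 66626481, hg19) was covered over 1219, 1160 and 1219 nt in the knockdown libraries (replicates 1, 2 and 3 in that order) and over 1160, 1101 and 1219 nt in the controls. This was the only region in which both replicate 2 libraries had a peak of at least 1000 nt, and the knockdown and control values nearly coincided. CELSR1 encodes a cadherin of planar cell polarity. On the minus strand of chromosome 22 (46929564 to 46932438) its region was covered over 2338, 1024 and 2725 nt in the knockdown and 2279, 1409 and 2726 nt in the controls, again with overlapping groups. The stretch without a gene number, on the minus strand of chromosome 17 (79218804 to 79220524), was covered over 1632, 1257 and 1721 nt in the knockdown and 1368, 868 and 1721 nt in the controls.

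Replicate 2 reached the minimum in 8 regions only. The 4 regions just named were among them, and the others lay in ANKRD33B (a region other than the longer one described below), in BAHCC1, which encodes a chromatin protein, in ZC3H4, a zinc finger protein that limits extragenic transcription, and in a further stretch with no gene number. In ZC3H4 (chromosome 19, 47568195 to 47571069, minus strand) the covered length was 2551, 1411 and 2875 nt in the knockdown and 1769, 1322 and 2756 nt in the controls. Each knockdown value exceeded its paired control, by margins that differed widely between pairs. In BAHCC1 (chromosome 17, 79409012 to 79410510, plus strand) it was 1499, 1020 and 1439 nt against 1022, 481 and 1320 nt.

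Both of the longest peaks, of 5096 and 4976 nt, lay in AHNAK2, which encodes a giant scaffold-like nucleoprotein. AHNAK2 is listed below among genes known for very large exons. Its region on the minus strand of chromosome 14 at 105407278 to 105412373 was covered over 3899, 1625 and 5096 nt in the knockdown and over 1957, 1023 and 4084 nt in the controls. The neighbouring AHNAK2 region at 105414262 to 105419327 was covered over 4379, 2076 and 4976 nt in the knockdown and 1177, 1176 and 4111 nt in the controls. Both regions were covered further in the knockdown of every pair, but the groups overlapped because the replicate 2 knockdown library lay below the replicate 3 controls. In all, 5 long regions of AHNAK2 covered 11979, 5177 and 15413 nt in the knockdown and 5303, 3892 and 13060 nt in the controls.

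ZNF646, a C2H2 zinc finger gene (chromosome 16, 31089199 to 31093030, plus strand), followed with 3515, 1173 and 3832 nt in the knockdown and 2646, 1010 and 3516 nt in the controls. HELZ2, a helicase that acts as a nuclear receptor coactivator (chromosome 20, 62193943 to 62197509, minus strand), had 3478, 2312 and 3567 nt against 2611, 1173 and 3330 nt. In both genes the knockdown was longer in each pair. GLI2, a transcription factor of Hedgehog signalling (chromosome 2, 121746453 to 121749929, plus strand), had 3088, 994 and 3447 nt against 1864, 362 and 3358 nt. MAST4, a serine/threonine kinase (chromosome 5, 66459585 to 66463148, plus strand), had 3267, 2007 and 3475 nt against 2044, 1309 and 3564 nt, so that replicate 3 went the other way. The gene numbered 643314 in the lists, which has no symbol in the table used here, had 2638, 1710 and 3565 nt against 2459, 1262 and 3326 nt on chromosome 1 (39875236 to 39878800).

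PLEC, RLF and ANKRD33B, also among the 10 longest, did not keep 1 direction either. PLEC encodes plectin, a linker of the cytoskeleton, and its region (chromosome 8, 144991687 to 144995130, minus strand) was covered over 2549, 241 and 3444 nt in the knockdown and 1321, 511 and 3444 nt in the controls. RLF, a zinc finger gene (chromosome 1, 40701603 to 40705069, plus strand), had 1499, 91 and 2873 nt against 1470, 301 and 3437 nt. In ANKRD33B, an ankyrin repeat gene (chromosome 5, 10654249 to 10657629, plus strand), the values were 2486, 1082 and 3321 nt against 1173, 930 and 3381 nt. Replicate 1 was longer in the knockdown in each of these genes. The other pairs were equal or shorter, except replicate 2 of ANKRD33B.

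**Figure D2:**
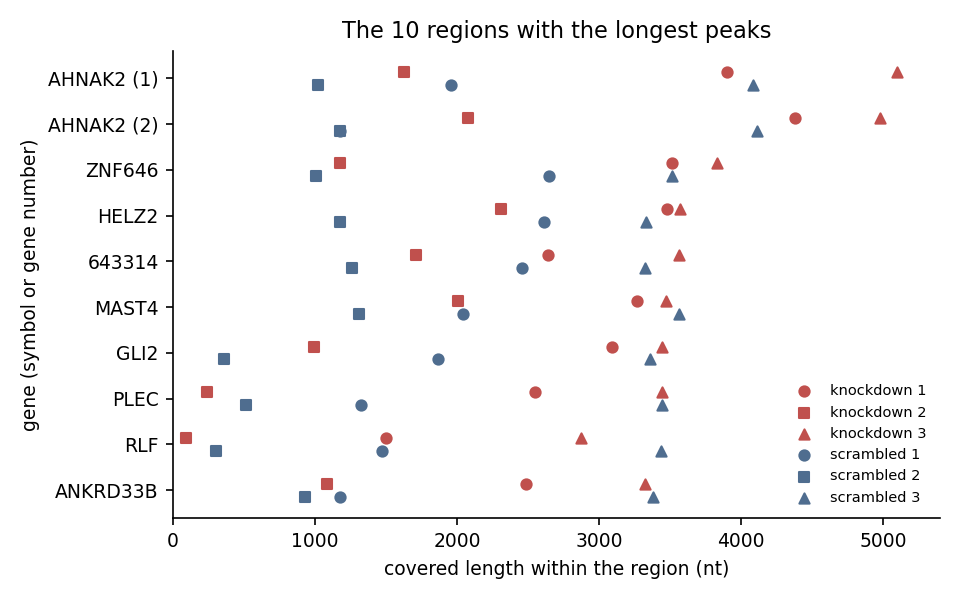
Points give the nt of each region that peaks of a library covered (horizontal axis), for the 10 regions with the longest peaks (vertical axis, with the AHNAK2 regions numbered), by siRNA (colour) and replicate (shape). Both replicate 3 points lie to the right of both replicate 1 points except in HELZ2 and the second AHNAK2 region, as in GLI2 with 3447 and 3358 nt in replicate 3 and 3088 and 1864 nt in replicate 1.

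Long regions were spread over 1317 of the 10536 genes with any peak (12.5%), of which 1311 gene numbers matched a symbol. In 50 regions no gene number was given and in 15 there were several. A single long region was found in 1238 genes, 2 in 64 genes and 3 or more in 15. AHNAK, the paralogue of AHNAK2, had 4. AHNAK, and ZNF292 and ZNF518A below, were named for their number of regions after values were seen. The 4 AHNAK regions on chromosome 11 together covered 2045, 541 and 5457 nt in the knockdown and 603, 1265 and 5667 nt in the controls, so the pairs disagreed. By RefSeq gene type, 12.8% of protein-coding genes with a peak had a long region (1244 of 9740), as did 8.81% of long noncoding RNA genes (48 of 545) and 9.79% of transcribed pseudogenes (19 of 194).

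Gene lists differed widely in how many of their members carried a long region, and these shares are set beside the 12.5% of all genes with a peak. A long region needs an exon block of at least 1000 nt, so the rule itself favours lists picked for large or single exons. Of 36 genes listed for very large exons, 21 had one (58.3%), among them AHNAK2, PLEC and SON, an RNA-binding splicing protein, whose region (chromosome 21, 34921998 to 34925081, plus strand) was covered over 1711, 812 and 3084 nt in the knockdown and 1173, 751 and 2464 nt in the controls. Of 39 ZBTB genes, transcription factors with a BTB domain and zinc fingers, 19 had a long region (48.7%). Genes whose coding sequence lies in a single exon had one in 10 of 23 cases (43.5%). The C2H2 zinc finger genes had 174 of 438 (39.7%), and the KLHL, KBTBD and KCTD genes, mostly substrate adaptors of cullin ubiquitin ligases, 16 of 46 (34.8%). Protocadherin genes had 5 of 49 (10.2%), HOX, SOX and FOX genes 8 of 80 (10.0%) and the long noncoding RNAs 33 of 391 (8.44%). Chromosome 19 carried the most long regions, 127 of its 1267 joined single-exon regions (10.0%), and chromosome 20 had a like share, 59 of 569 (10.4%), beside 1450 of 21122 over all chromosomes.

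**Figure D3:**
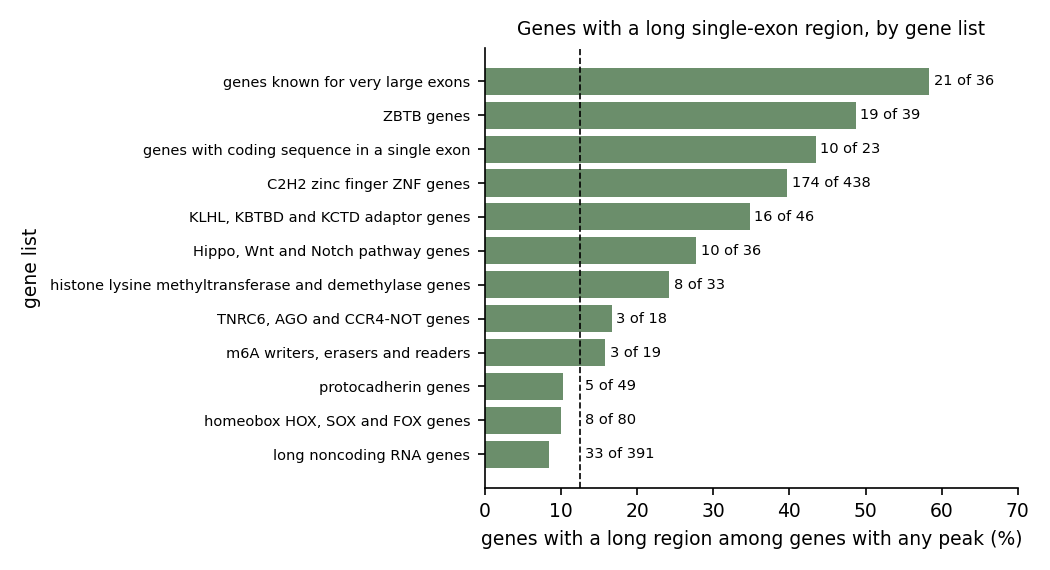
Bars give the share of genes with a long region among the genes of each list with any peak (horizontal axis, percent), for lists (vertical axis) with at least 15 such genes, with both counts printed. The dashed line marks 12.5%, the share over all genes with a peak, which the very-large-exon genes (58.3%) exceed and the long noncoding RNAs (8.44%) do not reach. The rule itself favours lists picked for large or single exons.

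Within pairs, the length of each region under a library's peaks, its covered length, was compared between knockdown and control of the same number. In replicate 1 the median covered length was 1019 nt in the knockdown and 692 nt in the control over the 1412 regions called in both. The knockdown was longer in 1260 of them (89.2%) and shorter in 131 (9.28%), where 71.3 and 16.1% of all joined single-exon regions were longer and shorter. The median log2 ratio of knockdown to control was 0.49. In replicate 2 the medians were 391 and 330 nt over 755 regions, with 442 longer (58.5%, beside 50.5% of all regions) and 274 shorter (36.3%, beside 38.2%), and a median log2 ratio of 0.22. In replicate 3 they were 1229 and 1201 nt over 1449 regions, with 697 longer (48.1%, beside 37.7%), 595 shorter (41.1%, beside 38.2%) and a median log2 ratio of 0.00. The covered length cannot exceed the region, and the replicate 3 peaks, which set most region borders, filled a median of 97.6 and 96.9% of it.

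The replicate 1 shift was present in shorter regions too. In that pair the share longer in the knockdown was 42.3% of regions whose longest peak was under 300 nt, 72.0% from 300 to under 600 nt, 83.2% from 600 to under 1000 nt, 87.9% from 1000 to under 1500 nt and 93.1% at 1500 nt or more. Over the same classes the median log2 ratio was 0.00, 0.44, 0.49, 0.49 and 0.51, so above 300 nt the size of the shift hardly changed while the share of regions that showed it grew. In replicate 3 the median was 0.00 in the first 4 classes and 0.02 in the longest.

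**Figure D4:**
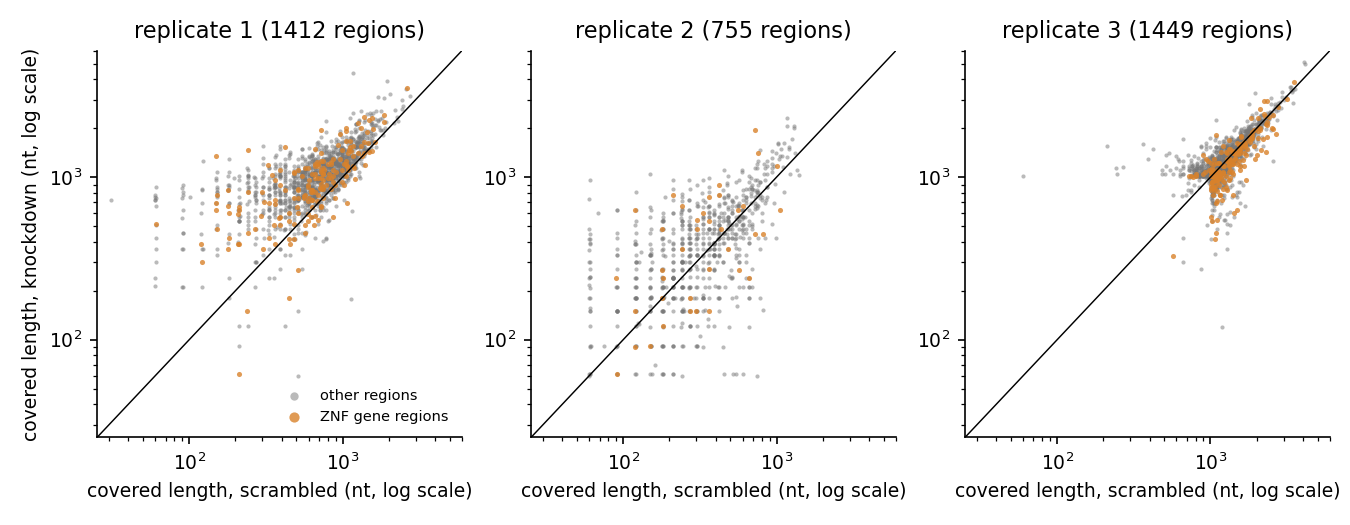
Each point is a long region called in both libraries of a pair, with its covered length in the scrambled (horizontal axis) and knockdown library (vertical axis), in nt on log scales, and ZNF gene regions in orange. In replicate 1 most points (1260 of 1412) lie above the line of equal length, and in replicate 3 they lie on both sides (697 above, 595 below).

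A test was possible only on lengths that the choice of regions had not used. For each pair, regions were chosen from the long peaks of the other numbers alone, and both libraries of the pair were then measured over the joined single-exon region. The ratio of knockdown to control, averaged on the log2 scale, was 1.54 in replicate 1 (1345 regions), 1.15 in replicate 2 (755 regions) and 1.04 in replicate 3 (497 regions). The replicate 3 set was chosen mostly through the replicate 1 knockdown. In replicate 1, 378 regions were long only in the knockdown, 29 only in the control and 88 in both. Over all long regions the median log2 ratio of replicate 3 was 0.00, so its direction here rests on a set picked mainly by a knockdown library. Knockdown libraries had a mean log2 covered length of 9.66 ± 1.07 (SD, n = 3), and control libraries one of 9.36 ± 1.11 (SD, n = 3). Their difference of 0.29, higher in the knockdown in 3 of 3 pairs, was smaller than the SD among libraries of 1 siRNA (p = 0.7 by a two-sided exact permutation test, whose smallest p here is 0.1). Each replicate number was measured over its own set of regions and, by the protocol, had its own RNA type or antibody. Those SDs are therefore not a spread among like libraries, and the unpaired test mixes these sets. With the replicate number as a block, p was 0.25 by an exact sign-flip test, and 3 pairs can give no smaller p. Without knockdown replicate 1 the difference was 0.098 and without scrambled replicate 1 it was 0.13, each with the whole pair left out, so the size of the difference rested on replicate 1.

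Gained and lost calls were few in replicates 1 and 3. The replicate 1 knockdown gained 33 calls that its control lacked (2.28%, beside 21.1% of all joined regions) and lost 3 (0.207%, beside 6.68%). In replicate 3 there were 0 and 1, beside 10.9 and 13.0% of all regions, which the rule largely fixed because most regions were chosen from these lists. The 1 region lost there lay in TEX19 (chromosome 17, 80319955 to 80321325, plus strand), with 60, 0 and 0 nt in the knockdown and 509, 0 and 1371 nt in the controls. In replicate 2, which defined almost none of the regions, 123 were gained (8.48%, beside 6.36%) and 170 lost (11.7%, beside 5.78%), against the direction of the lengths in that pair.

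Many regions with a long peak in the replicate 1 knockdown held more than 1 peak, and no long one, in its control. The knockdown could hold further peaks there too, as in PROB1 with 4 peaks in each library of that pair. Of the 378 regions long only in the replicate 1 knockdown, the control called 377, 328 of them with more than 1 peak. Among all long regions that each library called, 73.1% in this control and 60.2% in this knockdown held more than 1 peak. Over those 377 regions the median covered length was 1285 nt in the knockdown and 899 nt in the control. Conversely 29 regions were long only in the control of that pair, 13 of them with more than 1 knockdown peak, and there the medians were 1285 nt in the knockdown and 1200 nt in the control. In replicate 3 the counts were 334 and 335 regions long in only 1 library of the pair, and 718 in both. Some stretches missed the rule because a peak ran on over a splice junction: in knockdown replicate 3, 184 regions were covered over 1000 nt or more without a qualifying peak, and in 114 of them a spliced peak overlapped. SH3PXD2A and URGCP show this. SH3PXD2A, which encodes a scaffold of invadopodia, was long only in the controls by the rule, yet its region (chromosome 10, 105360745 to 105363502, minus strand) was covered over 2728, 1594 and 2758 nt in the knockdown and 2490, 1024 and 2758 nt in the controls. In URGCP (chromosome 7, 43915740 to 43918850, minus strand) the values were 2992, 541 and 3111 nt against 2457, 480 and 3111 nt.

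By long calls alone, 58 regions were long in at least 2 knockdown libraries and in no control, and 3 the reverse. The choice of regions fixes part of these counts, since the replicate 1 control held only 131 long peaks. The 58 were led by PROB1, SNX8, HEXIM1, NDOR1 and PHRF1. The region in PROB1, which encodes a proline-rich protein (chromosome 5, 138728082 to 138730885, minus strand), was covered over 1882, 1048 and 2804 nt in the knockdown and 1346, 150 and 1794 nt in the controls. HEXIM1 encodes an inhibitor of the elongation kinase P-TEFb, and its region (chromosome 17, 43225850 to 43227764, plus strand) had 1766, 481 and 1915 nt against 1139, 420 and 1677 nt. PHRF1, a ubiquitin ligase gene (chromosome 11, 607946 to 609713, plus strand), had 1498, 602 and 1768 nt against 1021, 211 and 1080 nt. NDOR1, which encodes a reductase (chromosome 9, 140111689 to 140113813, plus strand), had 1886, 362 and 1886 nt against 1139, 212 and 1558 nt. ZNF891 was the third of the reverse set (chromosome 12, 133696870 to 133698558, minus strand), with 1452, 0 and 1546 nt in the knockdown and 1556, 91 and 1689 nt in the controls.

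Of the 753 regions called in all 6 libraries, 251 were covered further in the knockdown of every pair (33.3%, beside 22.0% of all joined regions called in all 6) and 13 less far in every pair (1.73%, beside 1.61%). Only 5 were at least 1.5 times longer in every pair, a count that the smallest of the 3 ratios sets. In single pairs 42.3, 30.6 and 4.00% of the long regions called in both libraries were that much longer in replicates 1, 2 and 3. With the pair of a left-out library dropped, the count longer in every remaining pair was 435 without knockdown replicate 2, 471 without scrambled replicate 2 and 386 without scrambled replicate 3. The count shorter was 110 and 116 without the knockdown and control of replicate 1, 37 and 23 without those of replicate 2, and 20 without knockdown replicate 3. The 8 with the largest smallest ratio lay in ARMCX2, PRICKLE2-AS1, GPATCH8, SNX8, PHRF1, H2AX, ELFN2 and a stretch with no gene number. ARMCX2 encodes an armadillo repeat protein, and its region on the X chromosome (100911018 to 100912574, minus strand) had 1208, 151 and 1557 nt in the knockdown and 585, 61 and 935 nt in the controls. GPATCH8, a G-patch protein gene (chromosome 17, 42475458 to 42476864, minus strand), had 1199, 480 and 1407 nt against 749, 271 and 899 nt. SNX8, a sorting nexin of endosomes (chromosome 7, 2292721 to 2294725, minus strand), had 1975, 421 and 1527 nt against 1201, 270 and 988 nt.

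H2AX, the histone variant that is phosphorylated at DNA breaks (chromosome 11, 118964614 to 118965735, minus strand), had 680, 386 and 1122 nt in the knockdown and 237, 119 and 768 nt in the controls. In each of these genes every knockdown value exceeded its own control, yet the replicate 2 knockdown value lay below the control of at least 1 other replicate. For PRICKLE2-AS1, an antisense RNA (chromosome 3, 64084611 to 64085690, plus strand), the values were 1080, 571 and 1050 nt against 571, 150 and 661 nt. ELFN2 (chromosome 22, 37768495 to 37770239, minus strand) had 1716, 341 and 1655 nt against 902, 151 and 1142 nt. Peaks lay on the opposite strand of the PRICKLE2-AS1 and ELFN2 regions too, as they did for 74 of the 1450 regions, and whether the peak calling used strand is not given in the sources used here.

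The regions covered less far in the knockdown of every pair were led by ZBED3, which encodes an Axin-binding protein. Its region (chromosome 5, 76372562 to 76373714, minus strand) had 621, 296 and 592 nt in the knockdown and 1153, 357 and 1153 nt in the controls. AGAP1, an Arf GTPase-activating protein gene (chromosome 2, 237032707 to 237034536, plus strand), had 933, 332 and 1382 nt against 1053, 573 and 1830 nt. PTCD1, a gene of mitochondrial RNA metabolism (chromosome 7, 99015798 to 99017772, minus strand), had 992, 213 and 1498 nt against 1081, 394 and 1975 nt. The PTCD1 region also had a peak on the opposite strand. ZNF318 (chromosome 6, 43306928 to 43308037, minus strand) had 573, 61 and 961 nt against 661, 91 and 1110 nt. Apart from ZBED3 the replicate 1 margins in these genes were small. TRPS1, OXR1, SETD2 and MAML3 completed the 8 named by rank. SETD2, a histone H3K36 methyltransferase gene (chromosome 3, 47161771 to 47162821, minus strand) had 842, 121 and 961 nt against 871, 392 and 1051 nt.

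Differences of at least 1.5 times were counted next. In replicate 1, 597 of 1412 regions were that much longer in the knockdown (42.3%, beside 38.7% of all joined regions) and 20 that much shorter (1.42%, beside 5.56%). Replicate 2 had 231 of 755 longer (30.6%, beside 25.7%) and 126 shorter (16.7%, beside 16.7%). Replicate 3 had 58 of 1449 longer (4.00%, beside 9.44%) and 63 shorter (4.35%, beside 11.3%). At least 1.5 times longer in the knockdown of both replicates 1 and 3 were 35 regions (2.48%, beside 2.91% of all joined regions called in those 4 libraries), and 12 were as much shorter (0.850%, beside 1.08%). Both shares were close to the background. The genes named from these sets were chosen after their values were seen. PCDH1, a protocadherin (chromosome 5, 141242733 to 141244289, minus strand), had 1290, 0 and 1557 nt in the knockdown and 181, 0 and 212 nt in the controls. AJUBA, a LIM protein that binds Hippo kinases (chromosome 14, 23450476 to 23451848, minus strand), had 1373, 150 and 1373 nt against 450, 150 and 509 nt. IGFBP5, a binding protein of insulin-like growth factors that is abundant in bone (chromosome 2, 217537968 to 217539737, minus strand), had 1560, 572 and 1710 nt against 392, 0 and 661 nt. Replicate 2 was equal in AJUBA, had no call in PCDH1 and called IGFBP5 only in the knockdown. SPEN, a corepressor with RNA-binding domains (chromosome 1, 16258519 to 16259569, plus strand), had 691, 392 and 1051 nt against 213, 0 and 482 nt.

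Among the 12 in the other direction were 2 regions of FAM111B, a protease gene on chromosome 11. The FAM111B region at 58891807 to 58893153 (plus strand) had 271, 0 and 511 nt in the knockdown and 547, 0 and 1347 nt in the controls. That at 58893781 to 58894828 had 539, 0 and 660 nt against 809, 151 and 1048 nt. INHBE, which encodes an activin subunit (chromosome 12, 57849949 to 57851078, plus strand), had 179, 0 and 507 nt against 1130, 0 and 952 nt. MYCL, a transcription factor of the MYC family (chromosome 1, 40361603 to 40363154, minus strand), had 121, 0 and 691 nt against 420, 0 and 1552 nt. The set also held ZNF675, ZNF799 and ZNF853. Replicate 2 gave no call in either library for INHBE and MYCL.

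The zinc finger genes went opposite ways in the polyadenylated RNA pairs. They held 189 long regions, long in 33 and 109 cases in the knockdown of replicates 1 and 3 and in 9 and 163 cases in the matching controls, with 0 in both replicate 2 libraries. In replicate 1, 151 of 185 were longer in the knockdown and 30 shorter, with a median log2 ratio of 0.42, near the 0.49 of all long regions. In replicate 3, 50 of 189 (26.5%) were longer and 129 shorter (68.3%), with a median of -0.09. Outside these genes 647 of 1260 long regions (51.3%) were longer and 466 shorter (37.0%) in replicate 3. Of the 950 regions of zinc finger genes with no long peak, which the rule did not choose, both replicate 3 libraries called 654, with 196 longer (30.0%) and 336 shorter (51.4%) in that pair, beside 36.7 and 37.0% of the 11937 other regions with no long peak that both called. Nothing replicates a pair of 1 protocol, so this contrast was not tested.

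ZNF197 (chromosome 3, 44683441 to 44686670, plus strand) had 2157, 0 and 3023 nt in the knockdown and 1261, 0 and 3140 nt in the controls, the common pattern of the family. ZNF469 differed from it, with 3 long regions that together covered 5243, 4110 and 6918 nt in the knockdown and 3122, 1834 and 5304 nt in the controls, longer in every pair. In ZNF292 and ZNF518A all 3 long regions of each were long only in scrambled replicate 3. ZNF292 had 3453, 0 and 4055 nt against 2286, 362 and 5576 nt, and ZNF518A had 2068, 0 and 2038 nt against 1559, 61 and 3620 nt. ZBTB genes, whose products are related factors, had 18 of 21 regions longer in replicate 1 and 8 of 21 longer with 12 shorter in replicate 3. Of all long regions 89.2% were longer in replicate 1, and 48.1% were longer and 41.1% shorter in replicate 3. ZBTB18 (chromosome 1, 244217073 to 244218807, plus strand) had 1622, 1135 and 1707 nt against 1498, 933 and 1735 nt.

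The genes with their coding sequence in a single exon leaned one way instead. All 10 of their long regions were called in all 6 libraries. They were longer in the knockdown in 10 of 10 in replicate 1, 10 of 10 in replicate 2 and 8 of 10 in replicate 3. The shares over all long regions were 89.2, 58.5 and 48.1%. With 8 of the 10 longer in every pair, beside 33.3% of all long regions called in all 6, no test of the list was made. IER5, an immediate early gene (chromosome 1, 181057934 to 181059890, plus strand), had 1749, 804 and 1957 nt in the knockdown and 1484, 327 and 1425 nt in the controls. RHOB, a small GTPase (chromosome 2, 20646835 to 20648722, plus strand), had 1738, 392 and 1710 nt against 1290, 242 and 1351 nt. JUNB, a subunit of AP-1 (chromosome 19, 12902340 to 12904036, plus strand), had 954, 449 and 1697 nt against 777, 61 and 1074 nt. PURB, a purine-rich element binding protein (chromosome 7, 44922386 to 44924960, minus strand), had 2485, 750 and 2485 nt against 1591, 630 and 2337 nt. SOX4, also a member of the SOX list (chromosome 6, 21595917 to 21597443, plus strand), had 1377, 750 and 1377 nt against 1139, 722 and 1527 nt and was shorter in replicate 3.

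The counts of the next lists are to be read against the 89.2, 58.5 and 48.1% of all long regions that were longer in replicates 1, 2 and 3, and no difference from those shares was tested. The very-large-exon genes had 33 of 34 regions longer in replicate 1 with a median log2 ratio of 0.88, 16 of 26 in replicate 2 and 23 of 38 in replicate 3, with medians of 0.15 and 0.09. Of the HOX, SOX and FOX regions 9 of 9, 6 of 8 and 6 of 9 were longer in replicates 1, 2 and 3. FOXK1, a forkhead factor (chromosome 7, 4801934 to 4804062, plus strand), had 2039, 963 and 2129 nt in the knockdown and 1590, 722 and 1860 nt in the controls. Of the KLHL, KBTBD and KCTD regions 14 of 16, 2 of 8 and 8 of 16 were longer, so replicate 2 leaned the other way. KLHL9 (chromosome 9, 21332896 to 21335101, minus strand) had 1521, 210 and 2131 nt against 1197, 657 and 2206 nt. The long noncoding RNAs had 27 of 34, 5 of 12 and 15 of 34 longer.

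Of the 19 listed genes of the m6A machinery with a peak, 3 had a long region (15.8%, near the 12.5% of all genes with a peak). RBM15B, an adaptor of the writer complex (chromosome 3, 51429715 to 51432167, plus strand), had 2184, 843 and 2275 nt in the knockdown and 1528, 271 and 2423 nt in the controls. YTHDF2, the reader that directs methylated RNA to decay (chromosome 1, 29069023 to 29070422, plus strand), had 656, 447 and 1400 nt against 746, 270 and 1193 nt. CBLL1, a further writer subunit (chromosome 7, 107398643 to 107399720, plus strand), had 958, 181 and 959 nt against 150, 0 and 1078 nt. None of these kept 1 direction over the pairs. Among genes of H2B ubiquitination 2 of 10 with a peak had a long region, beside the same 12.5%. RNF40, a ligase for histone H2B (chromosome 16, 30786190 to 30787508, plus strand), had 751, 180 and 1259 nt against 540, 0 and 1201 nt. The RNF40 region passed 1000 nt only in the replicate 3 libraries, where both did.

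In the lists of TNRC6, AGO and CCR4-NOT genes and of histone lysine methyltransferases and demethylases, 3 of 18 (16.7%) and 8 of 33 (24.2%) genes with a peak had a long region, beside 12.5% of all genes. TNRC6B, a silencing partner of Argonaute (chromosome 22, 40660903 to 40662732, plus strand), had 1620, 782 and 1770 nt in the knockdown and 1264, 782 and 1710 nt in the controls. NSD1, a histone H3K36 methyltransferase (chromosome 5, 176720892 to 176722870, plus strand), had 1889, 782 and 1919 nt against 1204, 603 and 1949 nt. Of the Hippo, Wnt and Notch genes 10 of 36 had one (27.8%), and 7 of 9, 2 of 5 and 7 of 10 of their regions were longer in replicates 1, 2 and 3. Of all long regions 89.2, 58.5 and 48.1% were longer in these pairs. FZD7, a Wnt receptor (chromosome 2, 202899310 to 202901668, plus strand), had 1227, 570 and 2359 nt against 687, 331 and 1853 nt. APC2, a relative of the Wnt antagonist APC (chromosome 19, 1466525 to 1468025, plus strand), had 362, 391 and 1501 nt against 0, 0 and 422 nt. MAML3, a coactivator of Notch (chromosome 4, 140638325 to 140641440, minus strand) went the other way, with 2220, 1111 and 2967 nt against 2310, 1352 and 3026 nt.

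Over all called regions, coverage was lower at both ends of a region than in its middle. Averaged over the middle 20% of the length, a position was covered in 80.1, 35.4 and 96.3% for knockdown replicates 1 to 3, against 60.5, 28.2 and 95.2% for the controls, as shares of the regions each library called. Over the 20% at the 5′ end the shares were 63.3, 22.4 and 89.6% against 41.3, 18.0 and 85.1%. Over the 20% at the 3′ end they were 61.1, 15.8 and 87.5% against 36.0, 14.6 and 88.4%. The knockdown curve of replicate 1 lay above its control along the whole region. Low values at both ends follow in part from the way a region is defined, since only the longest peaks reach its borders, and an average does not show where peaks lie within single regions.

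**Figure D5:**
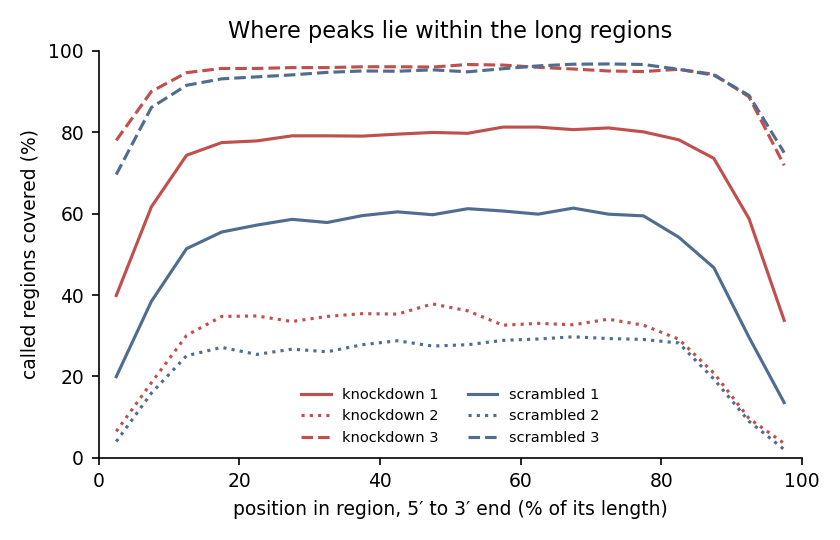
Lines give the share of called regions whose position was under a peak (vertical axis, percent), in 20 bins from the 5′ to the 3′ end of the region (horizontal axis, percent of its length), by siRNA (colour) and replicate (line type). The replicate 1 lines run apart along the whole region, with 80.1 and 60.5% over the middle 20%, and the replicate 3 lines lie together near 96.3 and 95.2%.

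Borders of long peaks seldom coincided. Among the 718 regions long in both replicate 3 libraries, the 5′ end was the same nucleotide in 139 (19.4%), the 3′ end in 143 (19.9%) and both ends in 34 (4.74%). For the 387 regions long in both knockdown replicates 1 and 3 these were 57, 52 and 9.

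Peaks elsewhere in the same genes, which the rule did not use, did not separate the siRNAs. Of the peaks outside long regions, the share in genes with a long region was 11.3, 13.1 and 10.6% for knockdown replicates 1 to 3, against 11.9, 12.7 and 10.4% for the controls. The means were 11.6 ± 1.28% (SD, n = 3) and 11.7 ± 1.14% (SD, n = 3), and the difference of -0.042 percentage points was far smaller than either SD (p = 1 by a two-sided exact permutation test, smallest possible p 0.1). Its sign turned without either replicate 1 library (0.085 and 0.064), without knockdown replicate 3 (0.21) and without scrambled replicate 2 (0.45).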

How the data were processed

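The submitters' processing notes name CASAVA 1.8.2, TopHat2, SAMtools and the build hg19. The caller that made the peaks, its threshold and its use of inputs are not stated in the labels or headers. A score accompanies each peak, deposited by the authors and read here as a p-value because it runs from 0 to 0.011. Longer single-exon peaks had lower scores (Spearman correlation across peaks from -0.79 to -0.88 over the lists). The score was used only to shorten lists in alternatives. The lists are per library and hold no counts, so depth is unknown and no interval for it is given. Repeated positions (115 of 81380 rows) were counted once. Positions are given on hg19, the build of the lists, 1-based with both ends included. Gene numbers were named through a RefSeq table of GRCh38.p14, used for names and gene types only. No genome of the lists' build was used here, so no sequence is printed.

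Regions were joined at 1 nt of same-strand overlap. Covered length is the nt of a region under a library's peak blocks. Analyses ran in Python 3.11.15 with pandas 2.3.3 and were tested on simulated lists. The replicate numbers pair the libraries, since the labels' protocol gives each number its own RNA type and antibody. Covered lengths, taken relative to the mean of their siRNA group, correlated within each number across the 1450 long regions (0.40, 0.71 and 0.70). The rule chose the regions on these lengths, which region size also caps, so this correlation is no independent check of the pairing. The members, lists and rules were chosen with earlier results of these data known. Named were the 10 longest regions, those long in all 6 libraries (none, so the 4 long in 5), up to 8 per direction differing in every pair, up to 5 per direction long in 1 condition only, and members of each gene list by longest peak. Not every gene so named is described. Genes outside this rule were picked after their values were seen: those long in replicate 2, those with several regions, TEX19, and those differing by 1.5 times in replicates 1 and 3. Some items are not reported here.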

Additional observations from a re-analysis of the deposited data

How the results depend on the processing

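The difference in held-out length kept its direction under all 16 alternatives, from 0.098 without knockdown replicate 1 to 0.46 without scrambled replicate 3. Leaving out a library there drops its pair and averages the remaining ones, each higher in the knockdown in the main result. The replicate block re-used the main value, so part of this agreement was fixed in advance. The replicate block (exact sign-flip permutation p = 0.25 for held-out length) changed no call, in a design too small to pass 0.05. The percentage of further peaks in genes of long regions differed by 0.080 points at a minimum length of 800 nt, the other sign, and by -0.76 to 0.45 with 1 library left out. The number of regions was 2451 at 800 nt and 438 at 1500 nt. Regions longer in every pair numbered 100 at 1500 nt, 148 in the best-scored 50% of each list and 5 at 1.5 times, and from 247 to 471 with 1 library left out (435 without knockdown replicate 2, 471 without scrambled replicate 2, 386 without scrambled replicate 3). The share called in all libraries was 46.7% at 800 nt, 67.4% at 1500 nt, 32.0% in the best-scored 50% and 51.1 to 63.6% with 1 library left out. Gained calls made up 47.3% of gained and lost calls over the pairs, 55.4% at 800 nt, 59.0% in the best-scored 50% and 38.1 to 89.2% with 1 library left out. Fewer libraries, pairs or regions enter some of these by construction. The medians within pairs stayed within 1 SD of the 3 pairs, a wide band since the medians themselves were 0.49, 0.22 and 0.00. With the exon length of the longest overlapping peak in place of covered length, they were 0.71, 0.19 and 0.03 in replicates 1, 2 and 3. The lists hold no reads, so what depth limits cannot be stated.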
